A study of Physcomitrium patens with 8 samples.

Results

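The comparison described here is of dried moss with moss kept on abscisic acid (ABA), taken over WT and an autophagy mutant together. It rests on the ABA and Dehydration arrays, 4 of the 8 arrays measured, each of which carries a WT and an atg5 channel. There were therefore 4 channels a side, and each Dehydration channel was set against the ABA channel of the same genotype, replicate and dye, which gave 4 pairs. A probe was taken as changed when its joint difference had an adjusted p under 0.05 and all 4 pairs had the same sign. By this rule 341 of 19143 tested probes, at 320 of 15119 loci, made up the members described below.

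The material was protonema, the filaments that grow from a spore before leafy shoots form, of the moss Physcomitrium patens. Colonies of WT and of atg5, a knockout of autophagy related gene 5, grew for 7 days at 25 °C in continuous light on a medium with ammonium tartrate and glucose. The ABA colonies then spent 24 h on agar with 50 µM ABA, and the Dehydration colonies 24 h on filter paper over silica gel in a closed jar. The labels name a single atg5 line, and leave unstated whether drying was preceded by ABA. The other treatments, used below only to place the members, were Hydration (colonies at the end of the 7 days) and Rehydration (dried colonies 24 h after return to fresh medium). Each treatment had 2 arrays, called biological replicates in the labels without mention of separate cultures. In the main fit, p-values rest on spread pooled over all 8 arrays, both between arrays and between the channels of an array. They do not measure the spread between the ABA and Dehydration arrays alone, and whether they cover separate cultures is unknown. The arrays had WT in Cy3 and atg5 in Cy5 in replicate 1 and the dyes exchanged in replicate 2.

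ABA is the hormone by which land plants respond to water loss, and some mosses given ABA survive a drying that otherwise kills them. Protective proteins and soluble sugars accumulate on ABA, whereas drying itself removes the water on which metabolism depends. Autophagy delivers cell material to the vacuole for breakdown, and ATG5 is part of the conjugation machinery that forms the autophagosome. The arrays' identifiers come with neither gene names nor descriptions, and none of them matched the reference table supplied. Genes are therefore given by identifier, with no role, and no pathway was examined. The cell type and the knockout could not be checked against marker genes for the same reason.

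Per channel, 37 to 48.7% of probes stood well above background on ABA and 45 to 53.4% after drying, against 19.3 to 30.7% in Rehydration, and no gene spot was saturated. The share was higher after drying in all 4 pairs, from 38.9 to 46.4% and 48.7 to 53.4% in WT and from 42.2 to 50.4% and 37 to 45% in atg5, and its part in the results below was not tested. Levels are normalised log2 intensities, and a difference is the Dehydration level minus the ABA level of the same probe. The number of arrays, 2 a side, limits the precision. The 2 channels of an array share its spots, so the 4 pairs amount to 2 pairs of arrays. The replicate number also coincides with the slide, the scan and the dye orientation. The normalisation places the median of all tested probes at nearly the same level in each treatment, 7.12 on ABA and 7.12 after drying, with a median difference of 0.02. All changes below are relative to that median, and a common shift of most transcripts on drying cannot be seen on this scale.

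Dried colonies had higher levels than ABA colonies for 218 probes and lower levels for 123 (limma separate-channel fit, Benjamini-Hochberg adjusted p under 0.05). Over all tested probes these are 1.78% called, 1.14% higher and 0.643% lower. Of the members, 57 were at least 2-fold higher (0.298% of tested probes) and 37 at least 2-fold lower (0.193%). The median difference of the higher members was 0.76, with a range of 0.44 to 3.41, and that of the lower members -0.78, with a range of -0.46 to -4.28. At an unadjusted p under 0.05 there were 2889 probes, or 15.1%. The same sign in all 4 pairs was common without any test, at 9885 probes or 51.6% (27.9% higher and 23.8% lower), so the count of members rests on the test and not on the sign.

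The pairs of 1 slide moved together far more than pairs of different slides. Across probes, the WT and atg5 differences correlated at 0.924 in replicate 1 and at 0.895 in replicate 2, where they share spots. Between slides the correlations were 0.19 to 0.244. These correlations are over probes of shared arrays and are given as a description. On the replicate 1 arrays 522 probes were at least 2-fold higher and 528 lower, and on the replicate 2 arrays 346 were higher and 373 lower. The 95 probes that passed 2-fold the same way on both slides were 9.05% of the first set and 13.2% of the second, and 63 probes passed it in opposite directions. Members had closely similar medians within the slides, 0.76 and 0.77 for the higher and -0.8 and -0.73 for the lower, but a similar size on both slides is part of what the test selects.

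**Figure D1:**
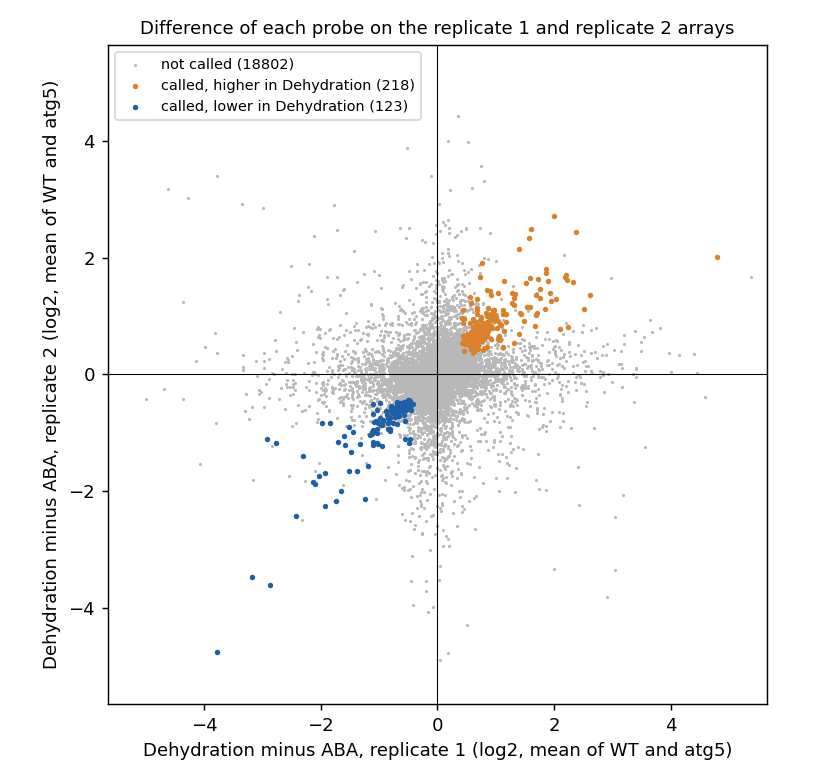
Each point is 1 of the 19143 tested probes, placed by its Dehydration minus ABA difference (log2, mean of WT and atg5) on the replicate 1 arrays (horizontal) and the replicate 2 arrays (vertical), with the 218 higher members in orange, the 123 lower members in blue and other probes in grey. Members lie along the diagonal, while many grey points lie along one axis or the other, large on 1 slide and near 0 on the other.

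Many of the large differences on a single slide came with 1 array that stood apart. For 974 tested probes, 1 of the 4 arrays lay at least 2-fold below each of the other 3, counting the mean of its channels. Only 49 probes had 1 array at least 2-fold above the others. The low array was ABA replicate 1 for 317 probes, Dehydration replicate 1 for 299, Dehydration replicate 2 for 211 and ABA replicate 2 for 147. Such spots lay near each other on the slide. Among probes within 2 rows and columns of a low spot on ABA replicate 1, 10.3% were low on that array too, against 1.66% of all probes. The corresponding shares were 8.32 and 1.56% for Dehydration replicate 1, 6.88 and 1.1% for Dehydration replicate 2, and 5.07 and 0.768% for ABA replicate 2. Of the probes past 2-fold in replicate 1, 58.7% had a low replicate 1 array, and 49.8% of those in replicate 2 had a low replicate 2 array. By its definition a low array puts its probe past 2-fold on that slide.

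Among the members, 11 had such a low array (3.23%, against 5.09% of tested probes). An ABA array was low in 7 of them and a Dehydration array in 4, which by the definition makes the first higher and the second lower members. Named probes among them are marked below, since their size rests partly on 1 array. The part of these low spots in the other results was not tested.

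The members were bright probes. Of the 4786 tested probes with the highest mean level 4.22% were members, against 2.22 and 0.669% of the next groups of about that size and 0.0209% of the 4786 dimmest. All 8 ABA and Dehydration channels were well above background for 180 of the 218 higher members and 108 of the 123 lower ones. In the higher members Pp1s71_175V6.2 and Pp1s84_210V6.1 none of the 4 ABA channels was well above background (0 of 4), so only a bound can be given, the dried mean against the higher of the lowest signal measured above background and the probe's own ABA signal. Their dried levels were at least 1.71-fold and at least 2.07-fold higher, with adjusted p = 0.0204 for each in the limma fit. In the lower members Pp1s160_65V6.1, Pp1s192_51V6.3 and Pp1s111_36V6.1 none of the 4 Dehydration channels was well above background. Their ABA levels were at least 2.09-fold, at least 2.13-fold and at least 1.68-fold higher, with adjusted p of 0.0241, 0.0489 and 0.0452 in the same fit. Pp1s111_36V6.1 was well above background in only 3 of 4 ABA channels. None of these bounds takes in the error of the fit.

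The 26 probes named from here on are the 10 largest rises, the 10 largest falls and the 4 brightest members of each direction, with 2 probes in both kinds of list. In all 26 the 4 dried channels lay wholly above or wholly below the 4 ABA channels. This separation held for 323 of the 341 members and for 20.1% of all tested probes (11.7% above and 8.43% below), and size chose the named probes, so nothing is read from it. Values of 4 channels are given as WT replicate 1, WT replicate 2, atg5 replicate 1 and atg5 replicate 2, and errors are standard errors (SE) from the joint fit, n = 2 arrays a side.

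**Figure D2:**
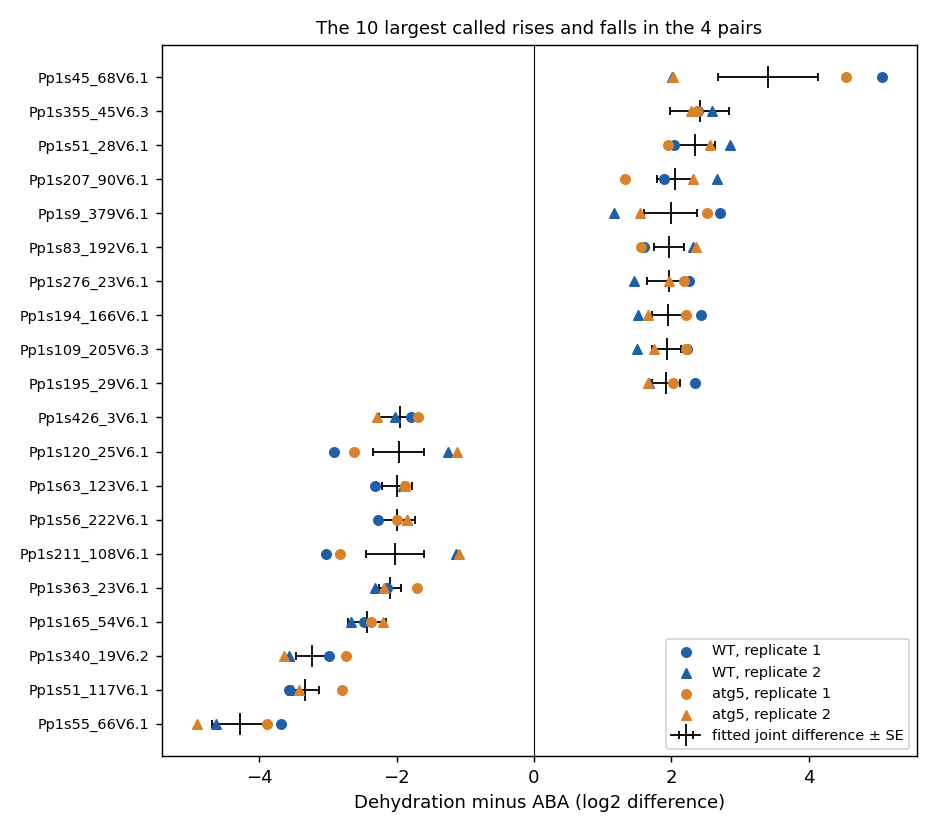
Dehydration minus ABA (log2) in each of the 4 pairs for the 10 largest called rises and the 10 largest called falls, with WT in blue, atg5 in orange, circles for replicate 1, triangles for replicate 2 and black bars for the fitted joint difference ± SE. Every point lies on its probe's side of 0, and same-shaped symbols, which share arrays, lie closer together than symbols of 1 colour in Pp1s45_68V6.1 and Pp1s120_25V6.1.

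A first set of rises had more signal on ABA than in Hydration and still more after drying. Pp1s51_28V6.1 stood at a mean log2 level of 8.9 in Hydration. On ABA its channels read 12.73, 12.16, 13.38 and 12.82, and after drying 14.77, 15.02, 15.33 and 15.38. Every dried channel was above every ABA channel, and the Rehydration mean of 14.5 lay between the ABA and dried means. The joint difference was 2.35 ± 0.288 (5.11-fold, adjusted p = 0.00377, limma).

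Pp1s289_66V6.1 followed the same order at a smaller step. Its Hydration mean was 7.11, its ABA channels read 12.45, 12.65, 12.2 and 12.45, and its dried channels 13.97, 13.84, 13.76 and 13.56. The ABA channels spanned less than the gap to the dried ones. The joint difference was 1.35 ± 0.133 (2.54-fold, adjusted p = 0.0013, limma), and at 12.73 the Rehydration mean was close to the ABA mean of 12.44.

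Pp1s109_92V6.1 and Pp1s271_8V6.1 were the other bright rises of this order. Pp1s109_92V6.1 went from 7.15 in Hydration to ABA channels of 14.17, 14.11, 14.4 and 14.22 and dried channels of 15.11, 15.36, 15.29 and 14.95. Its joint difference was 0.95 ± 0.185 (1.94-fold, adjusted p = 0.0317, limma). Without ABA replicate 1 or ABA replicate 2 this difference was 1.02 and 0.91, with adjusted p of 0.117 and 0.134. Pp1s271_8V6.1 was not well above background in any Hydration channel (0 of 4) and read 13.01, 12.84, 12.79 and 12.56 on ABA and 13.76, 13.67, 13.45 and 13.07 after drying. The lowest dried channel and the highest ABA channel nearly met. Its joint difference of 0.69 ± 0.15 (adjusted p = 0.0482, limma) lost the call without ABA replicate 1, ABA replicate 2 or Dehydration replicate 1, at adjusted p of 0.133, 0.268 and 0.197.

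The largest rise by fitted value, Pp1s45_68V6.1, differed between the ABA arrays. Its ABA channels read 6.17, 9.4, 6.51 and 9.15, low in replicate 1 and high in replicate 2 for both genotypes. Its dried channels were even, at 11.24, 11.41, 11.04 and 11.18. The joint difference was 3.41 ± 0.732 (adjusted p = 0.0448, limma), and ABA replicate 1 was its low array. Without that array it was 1.92 with an adjusted p of 0.114, and without ABA replicate 2 it was 4.81 with an adjusted p of 0.000731. Leaving out Dehydration replicate 1 or Dehydration replicate 2 also ended the call, at adjusted p of 0.183 and 0.179.

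A second set of rises was lower on ABA than in Hydration, and the dried level lay nearer to that of Hydration. Pp1s83_192V6.1 had a Hydration mean of 10.44, ABA channels of 8.58, 7.65, 8.28 and 7.49, and dried channels of 10.18, 9.97, 9.84 and 9.85. The dried channels lay close together and the ABA channels followed the replicate number, replicate 1 above replicate 2 in both genotypes. The joint difference was 1.96 ± 0.217 (3.89-fold, adjusted p = 0.00234, limma).

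Pp1s194_166V6.1 had the widest gap between Hydration and ABA of the probes in this set. Its Hydration mean was 11.25, its ABA channels read 7.24, 8, 7.71 and 8.44, and its dried channels 9.67, 9.51, 9.93 and 10.1. The dried mean of 9.8 lay between those of ABA and Hydration. The joint difference was 1.95 ± 0.23 (3.87-fold, adjusted p = 0.00321, limma).

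Pp1s109_205V6.3 and Pp1s195_29V6.1 were the remaining probes of this set with all 4 left-out arrays making no difference to the call and no array standing apart. Pp1s109_205V6.3 read 7.05, 7.66, 7.53 and 8.14 on ABA and 9.29, 9.16, 9.74 and 9.89 after drying, with a joint difference of 1.93 ± 0.211 (adjusted p = 0.00231, limma). Pp1s195_29V6.1 read 6.21, 7.05, 6.49 and 6.95 on ABA and 8.56, 8.72, 8.51 and 8.61 after drying, with a joint difference of 1.92 ± 0.201 (adjusted p = 0.00175, limma). Their Hydration means were 9.9 and 8.47.

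Pp1s207_90V6.1 and Pp1s9_379V6.1 belong to the same order by their Hydration means of 8.25 and 8.77 over both genotypes. For Pp1s207_90V6.1 this order was that of WT, with Hydration channels of 9.51 and 9.44. Its atg5 Hydration channels, 6.83 and 7.21, lay below the dried ones, and that of replicate 1 equalled its ABA channel. Each probe had 1 ABA array at least 2-fold below the other arrays. For Pp1s207_90V6.1 it was ABA replicate 2, with ABA channels of 7.34, 6.29, 6.83 and 5.87 against dried channels of 9.24, 8.96, 8.17 and 8.19. Its joint difference was 2.06 ± 0.276 (adjusted p = 0.0065, limma), and 1.52 to 2.55 with an array left out. For Pp1s9_379V6.1 it was ABA replicate 1, with ABA channels of 6.23, 8.08, 6.31 and 7.63 against dried channels of 8.94, 9.25, 8.83 and 9.18. Its joint difference was 1.99 ± 0.389 (adjusted p = 0.0329, limma) 1.17 without that array and 2.74 without ABA replicate 2, and it lost the call without Dehydration replicate 1 or Dehydration replicate 2, at adjusted p of 0.107 and 0.156.

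The last rises were Pp1s355_45V6.3 and Pp1s276_23V6.1. Like Pp1s195_29V6.1, Pp1s207_90V6.1 and Pp1s9_379V6.1, Pp1s276_23V6.1 was well above background in only 2 of 4 ABA channels. Pp1s355_45V6.3 was well above background in 1 of 4 ABA channels and read 6.13, 6.41, 6.18 and 6.35 there, against 8.51, 9, 8.55 and 8.64 after drying. In 1 genotype neither ABA channel was well above background. Its own signal there exceeded the lowest signal measured above background, so no separate bound was obtained. Pp1s355_45V6.3 had a fitted difference of 2.41 ± 0.433 (5.31-fold, adjusted p = 0.0231, limma). It lost the call with any of the 4 arrays left out, at adjusted p of 0.0766 to 0.141, although the difference stayed between 2.16 and 2.49. Pp1s276_23V6.1 read 5.8, 6.91, 6.08 and 6.7 on ABA and 8.05, 8.36, 8.26 and 8.65 after drying, a difference of 1.96 ± 0.319 (adjusted p = 0.0164, limma). It lost the call without ABA replicate 1, Dehydration replicate 1 or Dehydration replicate 2, at adjusted p of 0.0686, 0.0506 and 0.0824.

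**Figure D3:**
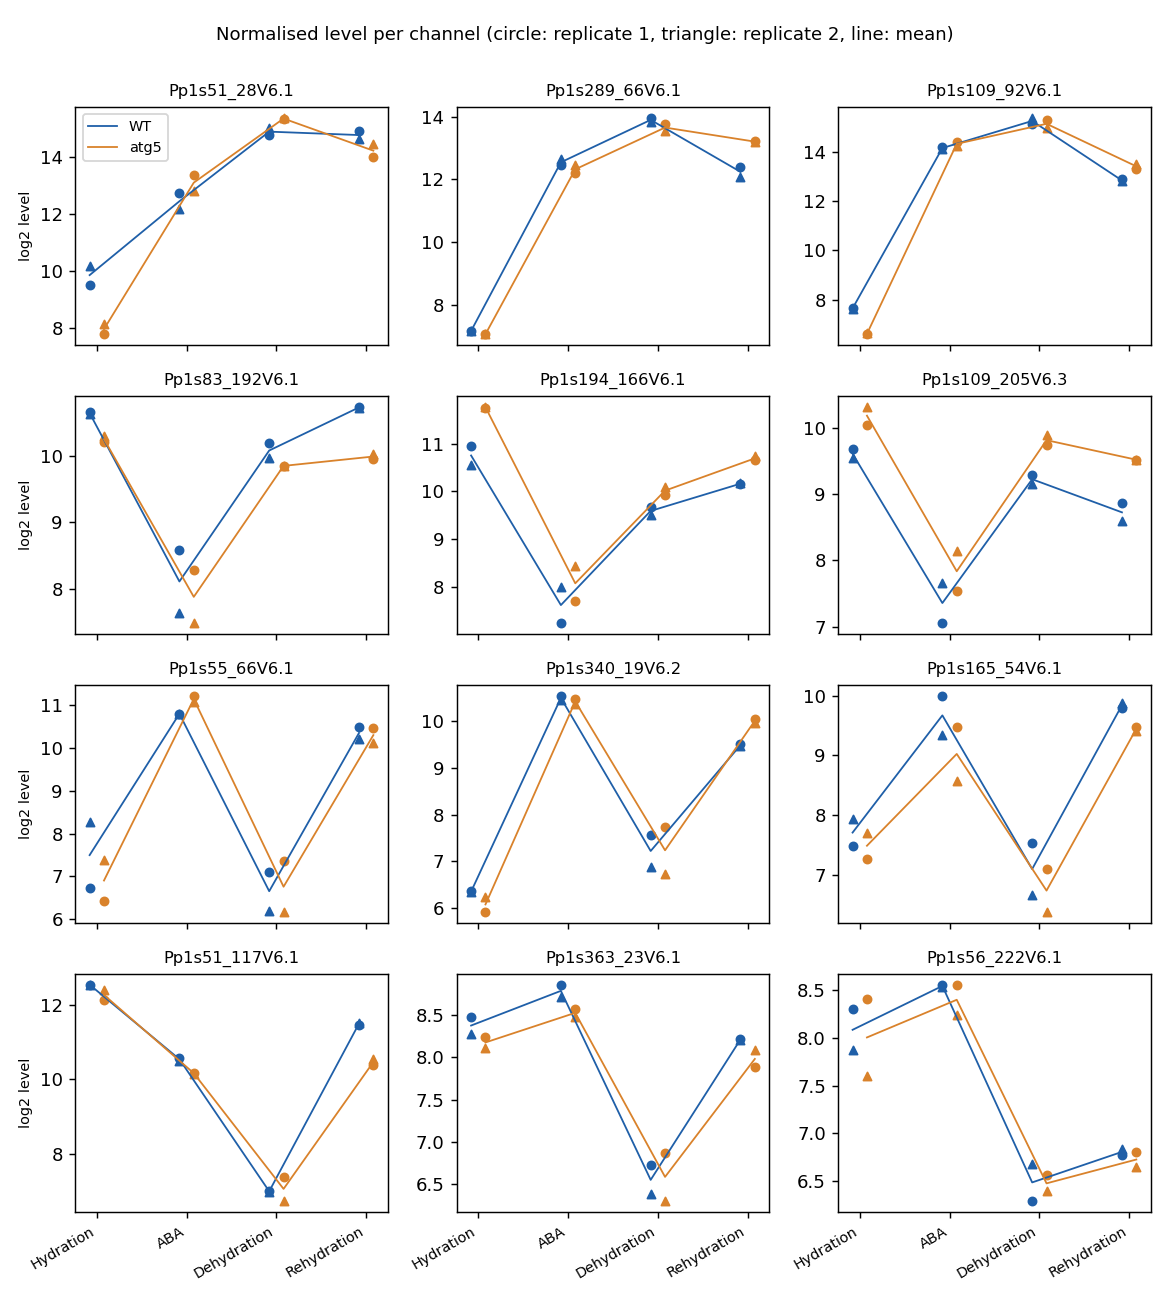
Normalised log2 level of 12 named probes in the 4 treatments, with WT in blue, atg5 in orange, circles for replicate 1, triangles for replicate 2 and lines through the means of each genotype. The first row holds rises above an already raised ABA level, the second rises from an ABA level below that of Hydration, the third falls from a level raised on ABA, and the last probes that were low after drying.

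Among the falls, one set was high on ABA and in Rehydration and low in Hydration and after drying. Pp1s55_66V6.1 had ABA channels of 10.8, 10.81, 11.23 and 11.07 and dried channels of 7.11, 6.19, 7.35 and 6.16. Its Hydration mean was 7.2 and its Rehydration mean 10.33. The dried channels were lower in replicate 2 than in replicate 1 in both genotypes, and Dehydration replicate 2 was its low array, at least 2-fold below the other 3. The joint difference was -4.28 ± 0.406 (adjusted p = 0.000968, limma), the largest fall among the members, and it was -3.67 without Dehydration replicate 2 and -4.67 without Dehydration replicate 1, still called in both.

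Pp1s340_19V6.2 and Pp1s165_54V6.1 showed the same order of treatments. Pp1s340_19V6.2 read 10.55, 10.45, 10.48 and 10.37 on ABA and 7.56, 6.88, 7.74 and 6.73 after drying, with means of 6.21 in Hydration and 9.75 in Rehydration. Its joint difference was -3.23 ± 0.237 (adjusted p = 0.00023, limma). Pp1s165_54V6.1 read 10, 9.34, 9.48 and 8.57 on ABA and 7.53, 6.67, 7.1 and 6.38 after drying, with means of 7.6 and 9.64 in Hydration and Rehydration. Its joint difference was -2.43 ± 0.282 (adjusted p = 0.003, limma).

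Pp1s211_108V6.1 and Pp1s211_112V6.1, whose identifiers share their first number, were bright falls also higher on ABA and in Rehydration than in Hydration. Their Hydration means were 10.09 and 10.39, and their Rehydration means 13.46 and 13.94. The dried means of 10.8 and 11.94 lay above those of Hydration. For Pp1s211_112V6.1 the dried mean was nearer to the ABA mean of 13.01 than to Hydration. Pp1s211_112V6.1 read 12.89, 12.79, 13.17 and 13.21 on ABA and 11.65, 11.72, 12.17 and 12.21 after drying, a difference of -1.07 ± 0.144 (adjusted p = 0.0065, limma). Its channels were even across replicates. Scaled to the spike-in controls, its difference was -0.47 with an adjusted p of 0.172. Pp1s211_108V6.1 read 12.71, 12.56, 13.06 and 12.95 on ABA and 9.68, 11.43, 10.24 and 11.87 after drying, with Dehydration replicate 1 the low array. Its difference of -2.02 ± 0.422 (adjusted p = 0.042, limma) was -1.16 without that array, with an adjusted p of 0.13, and -2.85 without Dehydration replicate 2, with an adjusted p of 0.00135. The call was also lost without ABA replicate 1 or ABA replicate 2, at adjusted p of 0.21 and 0.138.

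Another set of falls was lower after drying than in any other treatment. Pp1s51_117V6.1 had the highest level in Hydration, with a mean of 12.39, and read 10.58, 10.49, 10.17 and 10.15 on ABA and 7.01, 6.97, 7.38 and 6.73 after drying. The Rehydration mean was 10.98. The joint difference of -3.33 ± 0.206 had the lowest adjusted p of the named probes (adjusted p = 0.000125, limma), and it was -3.41 to -3.08 with an array left out.

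Pp1s363_23V6.1 and Pp1s63_123V6.1 were of the same kind. Pp1s363_23V6.1 read 8.86, 8.71, 8.57 and 8.48 on ABA and 6.72, 6.38, 6.87 and 6.3 after drying, a difference of -2.09 ± 0.161 (adjusted p = 0.000245, limma). Pp1s63_123V6.1 read 9.51, 9.45, 9.73 and 9.84 on ABA and 7.19, 7.55, 7.85 and 7.97 after drying, a difference of -1.99 ± 0.219 (adjusted p = 0.00231, limma). Their Hydration means, 8.27 and 9.93, were close to their ABA means of 8.65 and 9.63.

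In a further set the level was low after drying and in Rehydration. Pp1s56_222V6.1 read 8.56, 8.53, 8.56 and 8.24 on ABA and 6.29, 6.68, 6.56 and 6.39 after drying, a difference of -1.99 ± 0.251 (adjusted p = 0.00484, limma), with a Rehydration mean of 6.77. Pp1s426_3V6.1 read 8.22, 8.27, 8.26 and 8.21 on ABA and 6.43, 6.23, 6.57 and 5.92 after drying, a difference of -1.95 ± 0.309 (adjusted p = 0.0138, limma). The ABA channels of both were nearly level, while in Rehydration Pp1s56_222V6.1 was well above background in 1 of 4 channels and Pp1s426_3V6.1 in 0 of 4. Pp1s426_3V6.1 lost the call without ABA replicate 1, ABA replicate 2 or Dehydration replicate 2, at adjusted p of 0.0829, 0.0547 and 0.0555. Pp1s120_25V6.1 had dried channels of 6, 7.23, 6.45 and 8.02, with Dehydration replicate 1 the low array, and its difference of -1.97 ± 0.374 (adjusted p = 0.0281, limma) was -1.24 without it, with an adjusted p of 0.0827, and -2.56 without Dehydration replicate 2, with an adjusted p of 0.00171. The call was also lost without ABA replicate 1 or ABA replicate 2, at adjusted p of 0.139 and 0.0761.

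The remaining bright falls, Pp1s431_6V6.2 and Pp1s114_139V6.2, were small, and their sign depended on the scaling. Pp1s431_6V6.2 read 11.54, 11.42, 11.99 and 12.04 on ABA and 10.95, 10.98, 11.3 and 11.33 after drying, a difference of -0.61 ± 0.106 (adjusted p = 0.0204, limma). Pp1s114_139V6.2 read 11.39, 11.26, 11.85 and 11.93 on ABA and 10.98, 10.68, 11.15 and 10.91 after drying, a difference of -0.68 ± 0.118 (adjusted p = 0.0204, limma). Scaled to the spike-in controls, the differences turned to 0.11 and 0.06, with adjusted p of 0.682 and 0.831, and with median centring between arrays they were -0.1 and -0.14, with adjusted p of 0.642 and 0.406. Pp1s431_6V6.2 lost the call with any array left out (adjusted p of 0.0543 to 0.113), and Pp1s114_139V6.2 without ABA replicate 1, ABA replicate 2 or Dehydration replicate 2 (0.0904, 0.0519 and 0.106).

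The choice of signal moved several of the named differences. From the scanner software's processed signals in place of the background-corrected medians, 14 of the 26 named probes lost the call (limma), and 32 of the 218 higher and 18 of the 123 lower members kept it. Rises with an ABA channel not well above background became larger, with higher adjusted p: 3.52 for Pp1s195_29V6.1 (adjusted p = 0.0936), 3.79 for Pp1s207_90V6.1 (0.0656), 3.95 for Pp1s276_23V6.1 (0.142), 3.44 for Pp1s9_379V6.1 (0.161), 4.42 for Pp1s355_45V6.3 (0.0673) and 4.64 for Pp1s45_68V6.1 (0.158). So did falls with a Dehydration channel not well above background: -3.99 for Pp1s426_3V6.1 (0.0771) and -3.43 for Pp1s120_25V6.1 (0.272). The calls of Pp1s55_66V6.1 at -5.97, Pp1s363_23V6.1 at -3.54, Pp1s56_222V6.1 at -3.57, Pp1s51_117V6.1 at -4.26, Pp1s340_19V6.2 at -4.16 and Pp1s165_54V6.1 at -3.26 held. The other lost calls were Pp1s211_108V6.1 (0.139), Pp1s109_92V6.1 (0.181), Pp1s271_8V6.1 (0.25), Pp1s211_112V6.1 (0.0626), Pp1s431_6V6.2 (0.172) and Pp1s114_139V6.2 (0.128), at differences close to those above.

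Median centring of the ratios in place of loess changes only the contrast between the channels of an array. The joint differences average those channels and so could not move. Of the 26 named probes, 14 lost the call in this setting (limma). Among rises these were Pp1s51_28V6.1 (adjusted p = 0.0525), Pp1s289_66V6.1 (0.197), Pp1s109_92V6.1 (0.403), Pp1s271_8V6.1 (0.483), Pp1s45_68V6.1 (0.159), Pp1s355_45V6.3 (0.0907), Pp1s9_379V6.1 (0.143) and Pp1s276_23V6.1 (0.0525). Among falls they were Pp1s211_108V6.1 (0.229), Pp1s211_112V6.1 (0.303), Pp1s120_25V6.1 (0.0842), Pp1s426_3V6.1 (0.0524), Pp1s431_6V6.2 (0.494) and Pp1s114_139V6.2 (0.441). Keeping only the ABA and Dehydration arrays applied to both the normalisation and the fit, so the differences moved as well. In that setting Pp1s45_68V6.1 (0.0788), Pp1s9_379V6.1 (0.0738), Pp1s211_108V6.1 (0.0691), Pp1s120_25V6.1 (0.0591) and Pp1s109_92V6.1 (0.0516) lost the call. Pp1s271_8V6.1 also lost it with quantile normalisation, the strict filter and outlier spots kept (0.0676, 0.0531 and 0.056), and Pp1s45_68V6.1 with outlier spots kept (0.0507).

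Fitting 1 value per array, in place of 1 per channel, left 27 called probes (0.141%), 17 higher and 10 lower. Of these, 26 were members, 16 higher and 10 lower, so 315 members were not called in that fit. Of the 26 named probes 6 were called in it (limma on array means). They were Pp1s51_117V6.1 at an adjusted p of 0.0118, Pp1s211_112V6.1 at 0.0339, Pp1s363_23V6.1 at 0.0364, Pp1s340_19V6.2 at 0.0388, Pp1s109_92V6.1 at 0.0402 and Pp1s289_66V6.1 at 0.0406. Among those not called were rises that kept the call with each array left out: Pp1s109_205V6.3 and Pp1s195_29V6.1 at 0.0516 each, Pp1s194_166V6.1 at 0.0649 and Pp1s83_192V6.1 at 0.0696. With the replicate number, and so the slide, as a block in the channel fit, 810 probes were called, 474 higher and 336 lower, and all 341 members were among them.

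The split between rises and falls depended on which array was left out. Without ABA replicate 1 there were 195 higher and 30 lower calls, and without ABA replicate 2 there were 367 and 61. Without Dehydration replicate 1 the counts were 57 and 204, and without Dehydration replicate 2 they were 72 and 301. Each of these fits compares 1 array of a treatment with 2 of the other and takes the lone array to vary like the rest. All 218 higher and all 123 lower members kept their sign in each of the 4 fits. This was largely fixed beforehand, since the dried and ABA channels did not overlap in 323 of the 341 members. Most members of either direction lost the call in each of these fits.

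**Figure D4:**
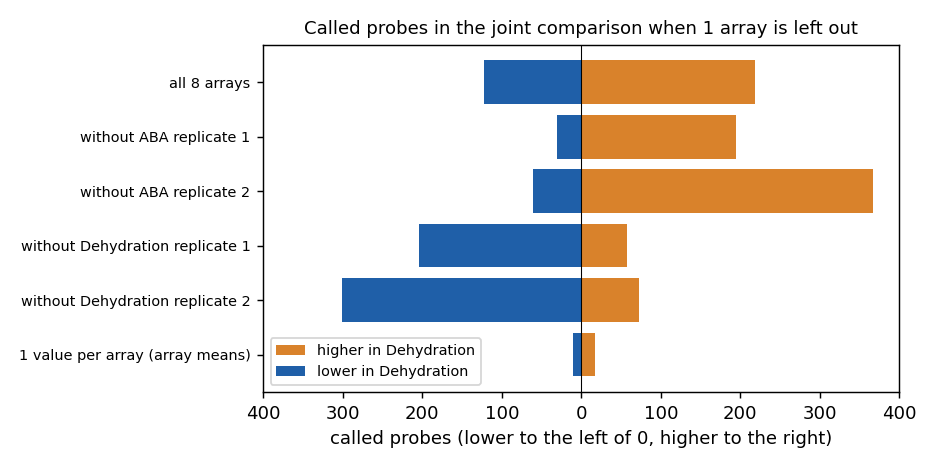
Number of called probes, lower in Dehydration to the left (blue) and higher to the right (orange), with all 8 arrays, with 1 of the 4 ABA and Dehydration arrays left out and with 1 value per array. Falls outnumber rises when a Dehydration array is missing and rises outnumber falls when an ABA array is missing, and 1 value per array leaves 27 calls.

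The direction of the lower members also depended on how arrays were scaled to each other. Median centring in place of the distribution-matching normalisation moved the median of all tested probes to 0.32, and spike-in scaling moved it to 0.52. With those shifts 6383 higher and 111 lower probes were called under median centring, and 5337 higher and 27 lower under spike-in scaling. All 218 higher members kept their sign under both, where an upward shift favours a rise, so nothing is read from it. Their median difference was 1.4 under median centring and 1.6 under spike-in scaling. Of the lower members 80 of 123 stayed below 0 under spike-in scaling and 114 under median centring, with medians of -0.16 and -0.37, and 23 and 56 were still called. A fall is therefore a fall relative to the other probes of the array.

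The genotypes were also fitted apart. In WT alone 277 probes were called (1.45%), 189 higher and 88 lower, and in atg5 alone 152 (0.794%), 94 higher and 58 lower. Of the higher members 160 were called in WT, 93 in atg5 and 75 in both, and 40 in neither alone. Of the lower members 74 were called in WT, 55 in atg5 and 37 in both, and 31 in neither. These counts do not show that the genotypes differ, and they share spots.

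The difference itself, the atg5 change minus the WT change, was called for 0 probes (limma, 0% of 19143), with 1073 at an unadjusted p under 0.05, or 5.61%. Among the higher members the median pair differences were 0.82 and 0.81 in WT and 0.7 and 0.73 in atg5, and among the lower members -0.87 and -0.72 in WT and -0.8 and -0.77 in atg5. For the named probes the 95% intervals of the difference show what was compatible with these arrays. For Pp1s51_28V6.1 the atg5 rise differed from the WT rise by -0.19, with an interval of -0.74 to 0.37. For Pp1s83_192V6.1 the interval was -0.41 to 0.42, and for Pp1s55_66V6.1 -1.02 to 0.55. For Pp1s114_139V6.2 it was -0.59 to -0.14 and for Pp1s51_117V6.1 0.04 to 0.84, neither adjusted for the number of probes tested.

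Of 98 member loci with at least 2 tested probes, all probes had the sign of the member in 75 (76.5%), and at least 2 probes were called in 19. Among all 2777 loci with at least 2 tested probes, the probes shared a sign in 66.5%. The locus Pp1s192_51 was called in both directions, the sole such case. Its model Pp1s192_51V6.5 rose by 0.61 ± 0.105 (adjusted p = 0.0204, limma), while Pp1s192_51V6.3 fell and was not well above background after drying. The other 3 models of this locus had differences of 0.31, 0.42 and 0.24 and were not called.

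The Hydration and Rehydration arrays took no part in choosing the members' direction, though they share the normalisation and the estimate of spread. They were added as a description after the data were seen, with no test. Rehydration exceeded Hydration at least 2-fold for 52 of the 218 higher members (23.9%) and for 26 of the 123 lower members (21.1%), against 6.56% of all tested probes. It was at least 2-fold below for 5 higher members (2.29%) and 18 lower members (14.6%), against 8.64%. Members are brighter than most probes, and among the 4786 brightest the shares above were 32% of higher members, 24.3% of lower members and 15.5% of all, and the shares below 0.781, 10.8 and 16.4%. The Rehydration channels were the dimmest of the series, and the part of this in these shares was not tested.

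The median level of the higher members was 8.11 in Hydration, 7.94 on ABA, 8.85 after drying and 8.56 in Rehydration. For the lower members the medians were 8.35, 8.81, 7.82 and 8.73 in the same order. The ABA and dried values follow from how the members were chosen. In Hydration, atg5 was at least 2-fold above WT for 13 of the lower members and at least 2-fold below for 0 (10.6 and 0%), against 1.97 and 1.01% of all tested probes. For the higher members these counts were 7 and 12 (3.21 and 5.5%). Here the shares were not set against those of probes as bright as the members, and the part of brightness in them was not tested.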

How the data were processed

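Per the file headers, the deposited spot intensities (linear scale) were made by the authors with Agilent Feature Extraction 9.5.3.1; the submitters' processing notes name 9.1. Each of the 8 arrays has 39733 spots, with 38316 gene spots of 38181 probes. Labelling used 200 ng of RNA per the labels and 400 ng per the series text.

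From the median pixel signals, used because the files give no mean spot signals, background was corrected with normexp (offset 50). Ratios were corrected by loess within arrays, and the mean log2 intensity of a spot's channels by Aquantile between arrays (limma 3.58.1, R 4.3.3). Spots marked as outliers were left out and spots of a probe averaged. A probe was kept if some genotype and treatment group had it well above background on each of its 2 arrays (19741), of which 598 lacked a value and 19143 were tested. All 16 channels entered lmscFit (channel correlation 0.679, statmod 1.5.0) without a block, with Benjamini-Hochberg adjustment over all tested probes. Named probes were the 10 largest rises, 10 largest falls and 4 brightest members each way, well above background in all 4 channels of the higher side, the brightest probe standing for a locus. Members, rule and comparisons were chosen with earlier results of these data known. Deviations of same-numbered ABA and Dehydration channels correlated at 0.0792 in WT and 0.0756 in atg5. The replicate number was therefore left out of the main fit, although a slide holds all same-numbered arrays. The same-sign rule still compares same-numbered channels. The script was tested on simulated data. The alternatives cover samples, block, array means, signals, scaling, filter, outlier spots and left-out arrays.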

Additional observations from a re-analysis of the deposited data

How the results depend on the processing

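The joint count of 341 became 1228 with only the ABA and Dehydration arrays, 810 with the replicate block, 27 with array means, 65 with processed signals, 6494 with median centring between arrays, 5364 with spike-in scaling, 31 with median centring of ratios and 720 with no filter. With alternatives chosen after seeing the data it was 7341 with the replicate block and only those 4 arrays, where the estimated channel correlation was -0.5, and 1471 without the Rehydration arrays. Leaving out 1 array gave 225 to 428. In the same order without array means, the WT count of 277 became 728, 562, 26, 5430, 4746, 0 (484 at an unadjusted p under 0.05, limma) and 427, then 1408 and 1074, and 162 to 430 with an array left out. The atg5 count of 152 became 367, 342, 34, 5749, 5011, 0 (206 at an unadjusted p under 0.05, limma) and 256, then 1006 and 782, and 211 to 305. The count of 0 for atg5 minus WT became 1 with median centring between arrays, 10 with spike-in scaling, 6 with the strict filter and 0 to 2 with an array left out; it was 0 with the replicate block and 0 with array means (1024 at an unadjusted p under 0.05). The quantile, strict filter and outlier-spot alternatives kept the joint, WT and atg5 counts within 1.5 times. Pp1s431_6V6.2 and Pp1s114_139V6.2 turned from falls to 0.11 and 0.06 under spike-in scaling. The cause of these changes was not tested. Of the 26 named probes, 15 kept the call with each of the 4 arrays left out and 10 in every setting run other than array means. Fits with an array left out kept the channel correlation of 0.679, because it could not be estimated with a lone array. Dim probes limit what can be called: 0.0209% of the 4786 dimmest were members.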
